A study of Mus musculus with 20 samples.

Results

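The comparison described here set microglia taken 72 h after a lateral hemisection (HS) of the thoracic spinal cord against microglia from non-injured (NI) cords. Its members were the 3 HS 72 h and the 3 NI columns of the normalised read count table, which are 6 of the 20 samples of the series, read across all 16810 genes. All samples were cells sorted by flow cytometry for high eGFP fluorescence from adult male CX3CR1+/eGFP mice on a C57BL/6 background, in which eGFP stands in for 1 copy of *Cx3cr1*, the fractalkine receptor. HS samples came from a cord segment around the lesion at the ninth thoracic level, cut on 1 side after laminectomy, and NI samples came from the same stretch of cord in mice without a lesion, so the contrast holds the surgery together with the hemisection. A further 3 samples taken 72 h after full transection (FT) and 2 samples taken 1 week after HS, of the same genotype and sort, were used for direct comparisons with HS 72 h. The eGFP of these mice also marks monocytes of the blood, and although the study found no LY6C, a surface protein of inflammatory monocytes, on eGFP-high cells in a parallel staining, some macrophages derived from monocytes may have been sorted with them, so "microglia" below is the label of the sort. The methods call the samples biological replicates and list more mice than libraries, so a library may pool several mice. No label ties a sample to its animals. The p-values and standard errors (SE) below rest on the spread within all 7 groups of the series, not only within NI and HS 72 h.

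Microglia are the resident macrophages of the central nervous system, and in the healthy cord they keep a surveying state marked by genes such as *P2ry12*, *Tmem119* and *Cx3cr1*. After injury they divide, take up debris through lysosomal digestion, secrete matrix proteins and cytokines, and lower part of that surveying programme. Monocytes that enter a lesion can acquire many of the same transcripts, which is why marker genes of other cells are set beside the microglial ones below.

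The libraries held 13937586, 6040762 and 8127877 counted reads in NI samples 1 to 3 and 34099232, 12758166 and 5228935 in HS 72 h samples 1 to 3. A single read was worth 0.033 to 0.205 on the deposited scale, so values of about 1 rest on few reads in HS 72 h sample 3. The columns did not sum to the same total: NI totals were 777426 to 830481 and HS 72 h totals 1071940 to 1202186. The labelled cell type was present in all 6 samples, with *P2ry12* between 2052 and 5085, *Cx3cr1* between 1370 and 2040 and *Csf1r*, the receptor for colony stimulating factor 1, between 5745 and 7230. NI sample 3 and HS 72 h sample 2 stood apart from their groups: 54 of the 8307 genes with a mean value of at least 10 were at least 2-fold below both other samples of the group in each of them. These included the ferritin heavy chain gene *Fth1*, at 3798, 3472 and 413 in NI and 8110, 554 and 6968 in HS 72 h. Across the series 8 of 20 libraries showed it, the cause was not tested, and the larger counts that change without those libraries are given with them beside the result.

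A gene was called differentially expressed (DE) when a limma fit over all 20 samples gave a Benjamini-Hochberg adjusted p under 0.05 and at least a 2-fold change on the log2(value + 0.5) scale. Between HS 72 h and NI, 2250 of 16810 genes (13.4%) were DE, of which 1526 were higher (9.08% of all genes) and 724 lower (4.31%) after hemisection. The higher set held most of the large changes, with 287 genes at least 4-fold and 27 genes at least 16-fold higher, against 22 genes at least 4-fold lower. All 3 HS 72 h values lay above all 3 NI values for 4040 genes (24.0%) and below them for 4190 genes (24.9%), and 2213 of the 2250 DE genes were among these. In these bulk samples fewer cells of a type and less RNA per cell cannot be told apart. The median log2 difference over all genes was -0.11. With every column scaled to the same total that median became -0.52 and the split turned from 67.8% higher to 16.2% higher, with 619 genes higher and 3201 lower. The main gene groups below are therefore given on both scales. Across the 1526 higher genes the shallowest library, HS 72 h sample 3, was the lowest of the 3 for 1043 genes, and the median log2 change was 1.50, 1.52 and 1.22 in HS 72 h samples 1 to 3.

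**Figure D1:**
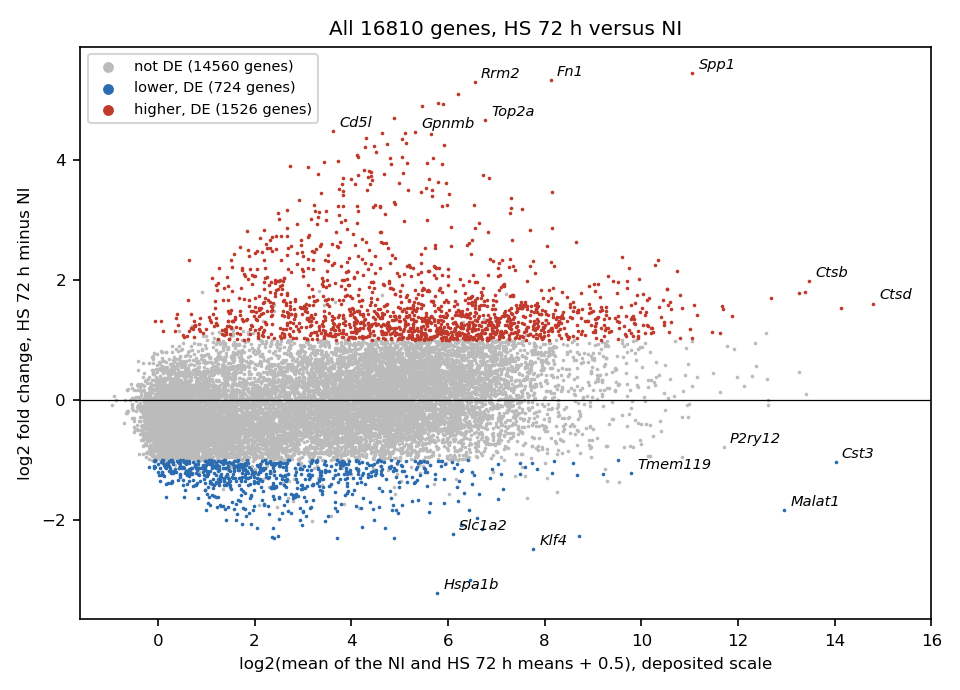
Each point is 1 of the 16810 genes, with the log2 of its mean deposited value on the horizontal axis and the log2 fold change, HS 72 h minus NI, on the vertical axis. The 1526 DE genes that were higher reach above 5 on the vertical axis (*Spp1*, 5.45; *Fn1*, 5.33; *Rrm2*, 5.29), while the 724 lower genes end at -3.22 (*Hspa1b*).

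Over all genes the largest rise was that of *Spp1* (chr5:104435118-104441050, GRCm38), which encodes the secreted matrix protein osteopontin. Its normalised read counts were 79.4, 94.8 and 108 in NI and 3789, 5235 and 3460.0 in HS 72 h, a log2 fold change of 5.45 with an SE of 0.25 (limma adjusted p = 7.143e-12). Next came *Fn1* (chr1:71585520-71653200), the gene of fibronectin, at 13.5, 13.9 and 11.4 in NI and 684, 438 and 515 in HS 72 h (log2 fold change 5.33, SE 0.30). In both genes every HS 72 h sample lay far above every NI sample. The remaining 8 of the 10 largest rises among genes with a mean value of at least 5 were 7 genes of DNA replication and mitosis, *Rrm2*, *2810417H13Rik*, *Ccnb1*, *Pbk*, *Ccnb2*, *Cdca3* and *Top2a*, and *Cd5l*, a secreted scavenger protein of macrophages, which went from 1.07, 0.257 and 0.384 in NI to 32.4, 18.3 and 18.7 in HS 72 h. Among the 10 largest falls were the inducible heat shock genes *Hspa1b* and *Hspa1a*, the transcription factor genes *Klf4* and *Jun*, the activin receptor gene *Acvr2b*, *Whrn*, and 4 genes that the cord expresses chiefly in astrocytes or other neural cells, *Slc1a2*, *Bcan*, *Ntsr2* and *Enho*. In absolute value, which is not per length of transcript, the 5 largest gains were in *Ctsd*, *Actb*, *Ctsb*, *Ftl1* and *Tmsb4x* and the 5 largest losses in *Cst3*, *Malat1*, *Tmem119*, *Jun* and *Ddx5*. The non-coding RNA *Malat1* stood at 9974, 11354 and 15564 in NI and at 2077, 4355 and 4313 in HS 72 h (log2 fold change -1.83, SE 0.38). The calls of *Cst3* and *Ddx5* were lost under 9 alternatives each.

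DNA replication was the first of the cell-cycle steps in which nearly the whole list moved. Of 19 genes that license and fire replication origins 17 rose and none fell, with a median log2 difference of 2.20 against -0.11 over all genes. *Mcm5*, a subunit of the replicative helicase, was at 9.29, 11.6 and 9.50 in NI and at 167, 95.8 and 92.2 in HS 72 h (log2 fold change 3.43, SE 0.27), and *Mcm10*, *Gins2*, *Gmnn* and *Cdc6* rose with log2 fold changes of 3.00, 3.22, 2.68 and 2.60. The 2 members that did not pass, *Gins3* and *Gins4*, had log2 differences of 0.28 and 0.85. At the replication fork 19 of 23 genes rose and none fell (median 1.44). *Top2a* (chr11:98992943-99024189), the topoisomerase that untangles replicated chromosomes, went from 9.12, 7.08 and 6.81 in NI to 272, 180 and 176 in HS 72 h, a log2 fold change of 4.66 with an SE of 0.22. *Pcna*, the sliding clamp of DNA polymerases, was already measurable in NI at 71.2, 69.2 and 84.0 and rose to 250, 229 and 147 (log2 fold change 1.44, SE 0.23). For the supply of nucleotides 10 of 11 genes rose (median 1.82). The largest change was in *Rrm2* (chr12:24708241-24714146), the regulatory subunit of ribonucleotide reductase, which stood at 5.54, 3.09 and 3.17 in NI and at 289, 152 and 108 in HS 72 h. Its partner subunit gene *Rrm1* rose with a log2 fold change of 2.43, the thymidine kinase gene *Tk1* with 4.03 and the thymidylate synthase gene *Tyms* with 1.82. HS 72 h sample 1, the deepest library, was the highest of the 3 for each gene given here with its values. At equal totals 13, 10 and 7 members of the 3 lists were called as higher, with medians of 1.70, 0.94 and 1.32, and the call of *Pcna* was lost.

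Entry into and passage through mitosis showed the same direction. Of 23 cyclins, cyclin-dependent kinases and their regulators 17 rose and none fell (median 2.07). *Ccnb1* (chr13:100778650-100786570), the cyclin of mitotic entry, was at 3.87, 2.45 and 2.40 in NI and at 150, 92.7 and 77.5 in HS 72 h (log2 fold change 4.95, SE 0.31), and *Ccnb2* rose by 4.89. Its kinase *Cdk1* rose by 4.24 and the polo-like kinase gene *Plk1* by 4.36. The G1 cyclins were an exception within the list: *Ccnd1*, *Ccnd2* and *Ccnd3* had log2 differences of -0.38, -0.19 and 0.56 with none called, while the G1/S cyclins *Ccne1* and *Ccne2* rose by 2.07 and 1.91. For *Ccnd1* the values were 51.1, 51.9 and 58.1 in NI and 35.3, 36.8 and 52.9 in HS 72 h, so the groups overlapped. In the list of 29 kinetochore and spindle checkpoint genes 25 rose and none fell, with the highest median of all lists at 2.93. *Bub1b* and *Cdca8*, parts of the spindle checkpoint and of the chromosomal passenger complex, rose by 4.28 and 4.44, and the summed list went from 293, 278 and 274 in NI to 1390, 1078 and 894 in HS 72 h. *Mki67*, the gene of the Ki-67 proliferation antigen, which belongs to no list and was named after its values were seen, went from 5.96, 7.72 and 6.23 to 140, 83.0 and 108 (log2 fold change 3.93, SE 0.19). At equal totals 16 of the cyclin and kinase genes and 23 of the kinetochore genes were called as higher.

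Among 12 transcription factors of the cell cycle 7 rose, led by *E2f8* (log2 fold change 3.12), *Mxd3* (2.44), *E2f1* (2.36) and *Foxm1* (2.24), whereas *Myc*, at 88.6, 92.2 and 53.2 in NI and 54.6, 76.1 and 80.8 in HS 72 h, was not called (-0.12). At equal totals 6 of the 12 were called as higher (median 1.06). The inhibitors did not move as a list, with 2 of 8 higher and 1 lower. *Cdkn2d* and *Cdkn2c*, inhibitors of the cyclin D kinases, rose by 2.24 and 1.64, and *Cdkn1c* fell by 1.46 on the log2 scale. *Cdkn1a*, the gene of p21, was at 37.2, 37.8 and 48.5 in NI and at 62.6, 122 and 107 in HS 72 h, which did not overlap but did not pass the test (log2 difference 1.18, SE 0.46, limma adjusted p = 0.0631). The median of the inhibitor list was 0.38 and turned to -0.11 at equal totals. Genes of the DNA damage response that act during replication rose in 14 of 19 cases (median 1.40), among them *Rad51ap1* (3.15) and *Rad54l* (2.63), which act in homologous recombination, and the checkpoint kinase gene *Chek1* (2.03). At equal totals 9 of the 19 were higher and 1 was lower (median 0.95). The damage-sensing kinases *Atm* and *Atr*, with log2 differences of -0.34 each, were not called. Of 14 targets of the p53 protein 3 rose, *Ccng1*, *Bax* and *Perp*, and the median was 0.01. That count became 1 without NI sample 3 and also without HS 72 h sample 1, 1 gene was lower without HS 72 h sample 2, and none was higher and 1 lower at equal totals, with a median of -0.46. Over all 16810 genes the median at equal totals was -0.52, with 619 genes higher and 3201 lower.

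Stretches of the promoters of these genes are shown for 2 kinds of element known to bind cell-cycle regulators. These are E2F sites, searched as TTTGGCGC, TTTCGCGC and TTTCCCGC, and the cell-cycle genes homology region (CHR), searched as TTTGAA. The CCAAT box is marked as well in *Ccnb1* and *Plk1*. It is not particular to cell-cycle genes, and it is the only match in the *Ccnb1* stretch. Both strands were searched in RefSeq promoters of GRCm38.p6, from 250 bases before to 50 after the start of transcription, and capitals mark the matches. A match is a string of letters and not a measured binding site.
*Mcm5* (chr8:75109341-75109382, plus strand): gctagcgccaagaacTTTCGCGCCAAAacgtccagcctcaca
*Cdc6* (chr11:98907998-98908035, plus strand): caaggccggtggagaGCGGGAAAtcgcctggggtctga
*Ccnb1* (chr13:100786534-100786600, minus strand): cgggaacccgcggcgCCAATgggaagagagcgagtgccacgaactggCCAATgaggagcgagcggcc
*Plk1* (chr7:122159406-122159484, plus strand): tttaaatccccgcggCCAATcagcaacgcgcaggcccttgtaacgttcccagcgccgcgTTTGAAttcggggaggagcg
E2F letters occurred in 14 of 51 promoters (27.4%) of the replication and nucleotide lists and in 5 of 44 (11.4%) of the cyclin, kinase, kinetochore and checkpoint lists, against 1.84% of all 32851 promoters and 2.90% of the promoters of genes in the table. The CHR letters occurred in 19 of 44 promoters (43.2%) of the mitotic lists and 12 of 51 (23.5%) of the replication lists, against 17.9% of all promoters. In promoters of genes in the table the CHR share was 12.95%, and in those of all higher DE genes 17.6%. For CCAAT the shares were 72.7% of the mitotic and 51.0% of the replication promoters, against 37.4% of all. Promoters were matched for 44 of 53 replication and nucleotide genes and 39 of 52 mitotic genes. *Pcna* held no E2F match in its window, *Rrm2* held a CCAAT box but neither E2F nor CHR letters, and *Ccnb1* held CCAAT boxes but no CHR letters.

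**Figure D2:**
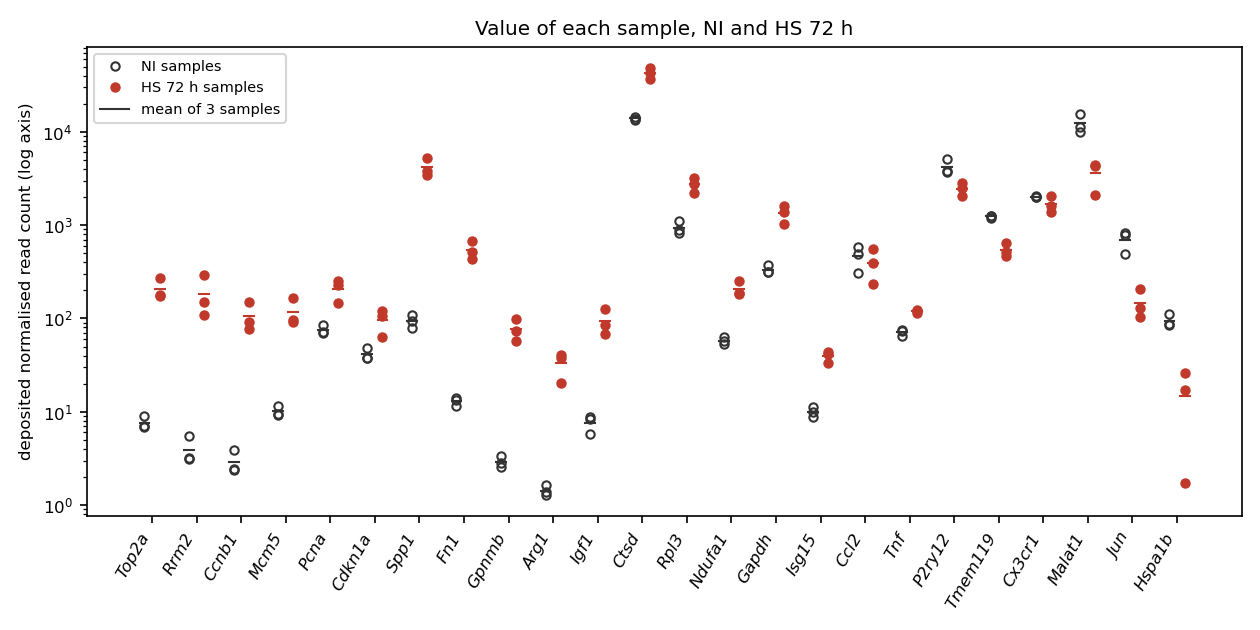
The deposited normalised read count of each sample is drawn on a log axis for 24 genes, with open points for NI, filled points for HS 72 h and a short line at the mean of each 3 samples. The points of the groups are far apart for *Top2a*, *Rrm2*, *Ccnb1*, *Mcm5*, *Spp1*, *Fn1*, *Gpnmb* and *Arg1*, and they overlap for *Ccl2* and *Cx3cr1*.

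Energy metabolism and protein synthesis rose in many members by smaller amounts. Of the subunits of respiratory complex I 21 of 34 rose, of complexes II and III 10 of 13, of complex IV 8 of 11 and of the ATP synthase 13 of 15, and none fell, with medians of 1.08, 1.23, 1.37 and 1.40. *Ndufa1*, a complex I subunit, was at 57.4, 52.9 and 62.5 in NI and at 184, 253 and 186 in HS 72 h (log2 fold change 1.83, SE 0.21). The cytosolic ribosome gave 41 of 46 large-subunit and 26 of 32 small-subunit genes higher and none lower (medians 1.27 and 1.31). *Rpl3* went from 1109, 884 and 829 to 2733, 3236 and 2213 (log2 fold change 1.53), and reads of ribosomal protein genes can be shared with processed pseudogenes, so single values are uncertain. Of 31 proteasome subunits 16 rose (median 1.00), with *Psma1* the largest of them at 1.47. Most of these calls depended on the scale. At equal totals 1, 1, 1 and 5 members of the 4 respiratory lists, 9 and 7 ribosomal genes and 0 proteasome genes were called, although their medians stayed between 0.49 and 0.90. With the library set as a term in the fit, complex IV reached 11 of 11 higher, with calls for *Cox5b* and *Cox8a*, which are among the genes that are low in NI sample 3 and HS 72 h sample 2. In glycolysis 9 of 18 genes rose (median 1.16), and 8 were called as higher at equal totals. *Pkm*, the pyruvate kinase gene, was at 450, 440 and 388 in NI and at 2745, 1949 and 1815 in HS 72 h (log2 fold change 2.33), and *Pgk1*, *Gapdh* and *Ldha* rose by 2.12, 1.98 and 1.82. *Hk2* and *Slc2a1*, which feed glucose into the pathway, had log2 differences of -0.23 and 0.14 and were not called.

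**Figure D3:**
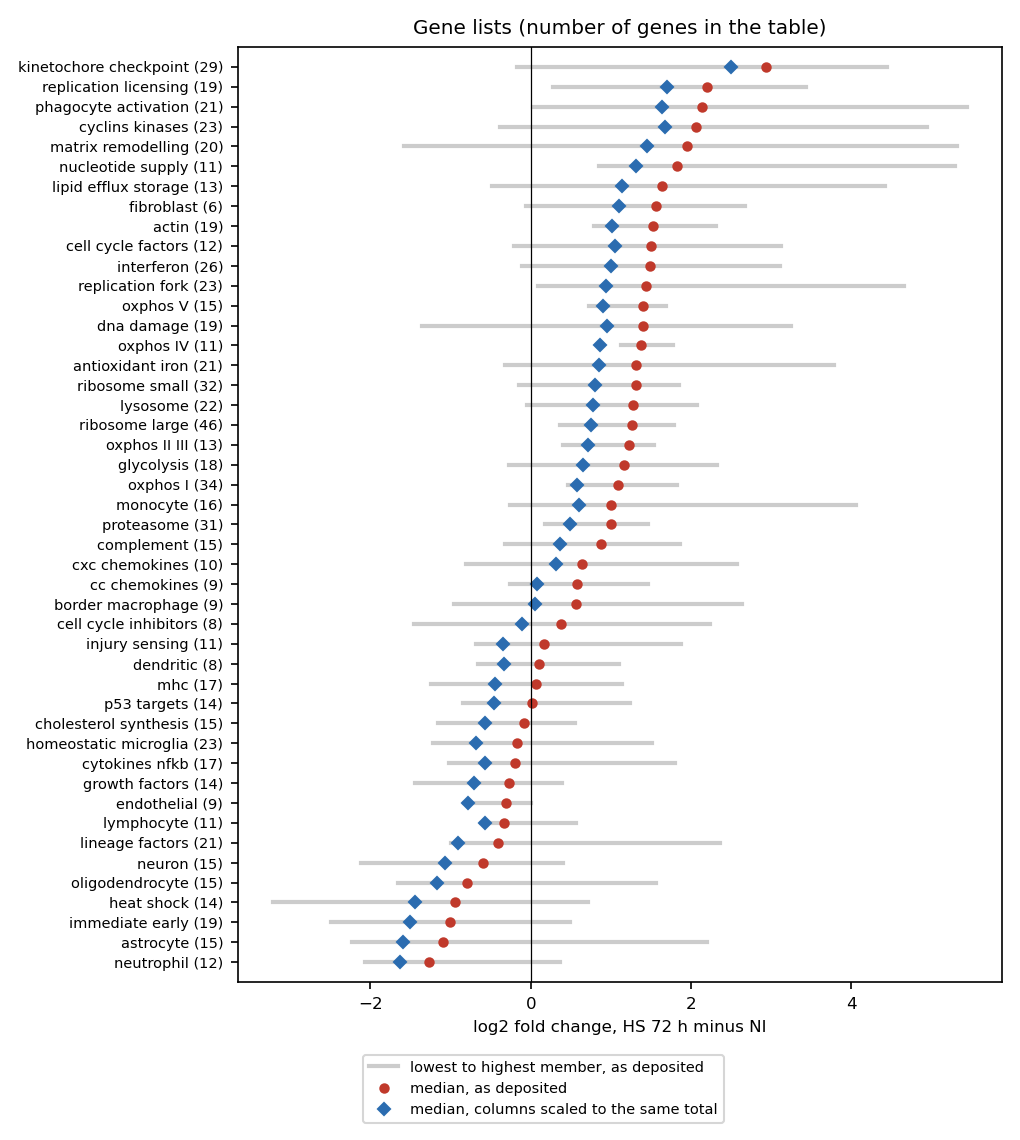
Each row is a gene list with its number of genes in the table, a grey bar from its lowest to its highest log2 fold change (HS 72 h minus NI), and its median on the deposited scale (circles) and with all columns scaled to the same total (diamonds). The oxphos rows are respiratory complexes I to V. The kinetochore and checkpoint list has the highest median (2.93, and 2.50 at equal totals), and the neutrophil list the lowest (-1.27).

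Genes of activated phagocytes formed the other group with large rises. In a list of 21 genes 16 rose and none fell, with a median of 2.14. Besides *Spp1*, the largest were *Gpnmb*, a transmembrane glycoprotein of phagocytes, from 2.80, 2.57 and 3.36 to 57.1, 74.2 and 97.6 (log2 fold change 4.46), and *Ch25h*, which makes the lipid signal 25-hydroxycholesterol, from 6.97, 8.24 and 6.91 to 58.6, 138 and 114 (3.64). *Igf1*, a growth factor gene, went from 8.34, 5.79 and 8.73 in NI to 67.5, 127 and 85.1 in HS 72 h (log2 fold change 3.50). *Cst7*, the gene of cystatin F, rose by 3.37 and *Lpl*, the gene of lipoprotein lipase, by 2.87. HS 72 h sample 1 was the lowest of its group for *Gpnmb*, *Ch25h*, *Igf1*, *Cst7* and *Lpl*, the reverse of its place among the replication genes. *Trem2*, a receptor that senses lipids, was at 1733, 1739 and 1807 in NI and at 1515, 2443 and 1981 in HS 72 h and did not pass (log2 difference 0.14). *Itgax*, the gene of CD11c, was not called either (0.39), with 10.4 in HS 72 h sample 1 below all NI values and 28.7 and 27.1 in the others above them. At equal totals 11 of the 21 genes were called.

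Lysosomal digestion rose broadly, in 18 of 22 genes with none lower (median 1.28). The proteases dominated in value: *Ctsd* (chr7:142375911-142388038) went from 14524, 13833 and 13521 to 37128, 47866 and 42975 (log2 fold change 1.60, SE 0.38), and *Ctsb* from 5296, 4568 and 4039 to 16953, 20085 and 17472 (1.98, SE 0.32). The largest folds belonged to the enzymes of sugar chains, *Galns* (2.08) and *Gusb* (2.07). The summed list was 29114 to 33382 in NI and 81622 to 102516 in HS 72 h, and 8 members were called at equal totals and 7 after quantile normalisation, where *Ctsd* was no longer called (0.89). Without the 8 libraries that stand apart 12 of the 22 were called.

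Handling of lipid and of oxidants rose along with it. Of 13 genes of lipid storage and efflux 10 rose (median 1.64), among them the apolipoproteins *Apoc2* (4.42), *Apoc1* (3.80) and *Apoc4* (2.81), the scavenger receptor gene *Msr1* (3.25) and *Plin2* (2.31), which coats lipid droplets. *Apoc2* was at 2.50, 4.12 and 5.37 in NI and at 68.9, 128 and 90.2 in HS 72 h. At equal totals 8 of the 13 were called as higher (median 1.14). Cholesterol synthesis did not move as a list, with 0 of 15 genes higher and 1 lower, a count that was 0 in each leave-out except that of HS 72 h sample 2 and 2 at equal totals. On that last scale 3201 of all 16810 genes were lower. Of 21 antioxidant and iron genes 13 rose (median 1.32), led by *Gpx3* (3.79), *Hmox1* (3.46), *Prdx4* (2.32) and *Gpx1* (1.99). *Hmox1*, which breaks down haem, spread widely within HS 72 h, at 464, 903 and 212, against 72.3, 32.7 and 27.1 in NI. *Ftl1*, the ferritin light chain gene, rose by 1.80, from 4098, 4900.5 and 5253 to 16921, 18595 and 14188. At equal totals 9 of the 21 antioxidant and iron genes were called as higher (median 0.85).

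Extracellular matrix and the cytoskeleton changed in the same samples. Of 20 genes of matrix remodelling 15 rose and 1 fell (median 1.95). After *Fn1* the largest were *Anxa2* (3.75), *Lgals1* (3.69), *Ecm1* (3.24) and *Vim* (2.87). *Lgals1*, the gene of galectin-1, was at 17.2, 12.6 and 17.4 in NI and at 283, 208 and 151 in HS 72 h. The exception *Mmp9*, a gelatinase, fell from 8.76, 3.86 and 3.17 to 1.52, 0.565 and 2.05, a call that was lost without NI sample 1, NI sample 2, HS 72 h sample 1 or HS 72 h sample 2. Actin and its regulators rose in 16 of 19 genes with none lower (median 1.53), including *Tpm4* (2.31), *Capg* (2.30), *Rac2* (1.93), *Cfl1* (1.86) and *Tmsb4x* (1.79). *Actb* stood at 7396, 9638 and 10804 in NI and at 28530.5, 28033 and 23169 in HS 72 h and lost its call after quantile normalisation, where its log2 difference was 0.65. At equal totals 13 matrix and 10 actin genes were called as higher.

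The markers of surveying microglia were mostly not called. In a list of 23 genes 1 rose and 2 fell, with a median of -0.18 that lay close to that of all genes. All 3 HS 72 h values lay below all 3 NI values for 10 of the 23 and above them for 4, against 24.9% and 24.0% of all genes. With no fold limit 6 of the 23 were lower and 3 higher, against 1829 and 2756 of all 16810 genes. *Tmem119* (chr5:113793729-113800516), a microglial membrane protein, was at 1196, 1263 and 1257 in NI and at 461, 636 and 513 in HS 72 h, a clear separation (log2 fold change -1.22, SE 0.22, limma adjusted p = 0.0002584). *Cst3*, the gene of cystatin C, fell from 21888.5, 19555 and 24794 to 7700.1, 15175 and 10494 (-1.04, SE 0.35), and that call was lost in each leave-out except that of HS 72 h sample 2. In the other direction *Fcrls*, an Fc receptor-like gene of microglia, rose from 1912, 1612 and 1615 to 4714, 5172 and 4749 (1.51), a call lost after quantile normalisation. *P2ry12*, the purinergic receptor of surveying processes, was at 5085, 3845 and 3739 in NI and at 2489, 2812 and 2052 in HS 72 h. Its groups did not overlap, but with a log2 difference of -0.78, an SE of 0.34 and an adjusted p of 0.09545 it did not pass (limma). *Sall1*, a transcription factor that marks microglia, had an adjusted p of 0.0016 and a log2 difference of -0.71, under the 2-fold limit, and *Cx3cr1* and *Csf1r* had differences of -0.29 and 0.00. The higher count was 2 without NI sample 3 and 3 without HS 72 h sample 3. The count of lower genes was 1 without NI sample 1, 2 or 3 or without HS 72 h sample 1 or 3, 3 without HS 72 h sample 2, 8 at equal totals and 11 after quantile normalisation. Of all 16810 genes 3201 were lower at equal totals and 804 after quantile normalisation. Of 21 myeloid transcription factors 3 rose and none fell on the deposited scale, *Bhlhe40* (2.37), *Bhlhe41* (1.03) and *Tfec* (2.05), and at equal totals 2 were higher and 10 lower. The call of *Bhlhe41* was lost without NI sample 3 or HS 72 h sample 1, and 1 factor was lower without NI sample 3, HS 72 h sample 2 or HS 72 h sample 3.

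Interferon-responsive genes rose in 18 of 26 cases with none lower (median 1.49, and 13 called at equal totals). *Ifi27l2a* was at 35.9, 28.4 and 30.2 in NI and at 226, 340 and 268 in HS 72 h (log2 fold change 3.11), *Ifit2* at 13.8, 11.7 and 11.99 against 51.0, 106 and 77.1 (2.54), and *Isg15* at 8.88, 9.91 and 11.1 against 41.1, 44.0 and 33.0 (1.92). *Irf7*, a transcription factor of the response, rose by 1.63. *Ifi205* was at 0 in every NI sample and at 1.22, 2.07 and 3.07 in HS 72 h, with 3 reads being worth 0.179 to 0.386 in the NI libraries, and it belongs to a family of near-identical genes between which reads may be split. A stretch of the *Isg15* promoter is shown for the interferon-stimulated response element, searched as GAAANNGAA on both strands.
*Isg15* (chr4:156200861-156200911, minus strand, GRCm38.p6): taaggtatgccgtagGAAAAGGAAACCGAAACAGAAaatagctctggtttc
The capitals mark overlapping matches. The letters occurred in 11 of 19 promoters (57.9%) of 17 matched list genes, against 8.56% of all promoters, while *Ifit2* and *Irf7* held none in their windows.

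Chemokines and cytokines moved little by comparison. Of 9 CC chemokines 2 rose, *Ccl6* (1.46) and *Ccl12* (1.37), and neither was called at equal totals or after quantile normalisation. *Ccl2*, which draws in monocytes, was at 307, 491 and 585 in NI and at 235, 560 and 389 in HS 72 h, fully overlapping (log2 difference -0.26). Of 10 CXC chemokines *Cxcl10* alone rose, from 14.9, 12.3 and 17.1 to 99.2, 92.1 and 80.2 (2.58), and 2 were called without HS 72 h sample 1 or sample 3. At equal totals 1 CXC gene was lower. Among 17 cytokines and NF-κB genes only *Il1rn*, the interleukin-1 receptor antagonist gene, rose, from 7.33, 10.04 and 8.15 to 15.6, 46.8 and 38.9 (1.80), and at equal totals 1 of the 17 was higher and 5 were lower. On that scale 3201 of all 16810 genes were lower. *Tnf* was at 64.5, 73.9 and 74.3 in NI and 122, 121 and 116 in HS 72 h, which did not overlap but did not pass (log2 difference 0.75, SE 0.68, limma adjusted p = 0.426). That SE comes from the fit over all 20 samples, and the values were close within NI and within HS 72 h. *Il1b* had 46.0, 65.2 and 82.1 in NI and 65.9, 275 and 217 in HS 72 h and was not called (limma adjusted p = 0.169). All 3 of these inflammatory genes were read in every NI sample.

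Antigen presentation gave 1 of 17 genes higher, *Cd40* (1.14), and 1 lower, *H2-Eb1*, with a median of 0.06 that turned to -0.45 at equal totals, where 0 genes were higher and 5 lower. *H2-Eb1*, an MHC class II chain, fell from 255, 239 and 258 to 68.4, 146 and 118 (-1.24), and the call was lost without NI sample 3 or HS 72 h sample 1. That of *Cd40* was lost without NI sample 3, HS 72 h sample 2 or HS 72 h sample 3, while 2 genes were higher without NI sample 1 or HS 72 h sample 1 and 2 lower without HS 72 h sample 3. The class II invariant chain gene *Cd74* went the same way without passing (-0.94). Of 15 complement genes 4 rose, *Cfp* (1.86), *Cfb* (1.67), *C4b* (1.39) and *C3* (1.08). At equal totals 2 were higher, and the calls of *C4b* and *C3* were lost. The C1q genes *C1qa* and *C1qb*, at log2 differences of 0.29 and 0.47, were not called. Receptors of injury signals gave 3 of 11 higher, *P2ry14* (1.87), *Nt5e* (1.24) and *Tlr2* (1.07), which became 1 without HS 72 h sample 2, without HS 72 h sample 3 or without the 8 libraries that stand apart, and their median of 0.17 turned to -0.34 at equal totals, with 1 gene higher and 2 lower. Of 14 growth factor and receptor genes *Pdgfb* (-1.25) and *Igf1r* (-1.001) fell and none rose, and the call of *Igf1r* was lost without NI sample 3, HS 72 h sample 1 or HS 72 h sample 2. At equal totals 4 of the 14 were lower. Over all 16810 genes that scale gave a median of -0.52, with 619 genes higher and 3201 lower.

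Immediate-early and heat shock genes lay on the lower side. Of 19 immediate-early genes 4 fell and none rose, with a median of -1.005. *Klf4* (chr4:55527143-55532466) was at 261, 393 and 454 in NI and at 51.6, 63.9 and 77.5 in HS 72 h (log2 fold change -2.49, SE 0.84), *Jun* at 492, 814 and 779 against 104, 129 and 208 (-2.26, SE 0.68), and *Jund* and *Ier5* fell by 1.88 and 1.66 on the log2 scale. *Fos*, at 1604, 2879 and 2806 in NI and 995, 1362 and 1328 in HS 72 h, did not overlap and was not called (-0.95). The SE of these genes was large in the fit over all 20 samples. The count of 4 fell to 0 without HS 72 h sample 1 and to 1 without HS 72 h sample 2 or NI sample 3. It was 2 without NI sample 2 and 0 without the 8 libraries that stand apart. With other settings it was 6 after quantile normalisation, 8 at equal totals and 9 with only NI and HS 72 h in the fit. Of all 16810 genes 804, 3201 and 820 were lower with those settings, in the same order. Of 14 heat shock genes 4 fell (median -0.94). *Hspa1b* was at 87.3, 84.3 and 111 in NI and at 1.72, 16.96 and 26.0 in HS 72 h (-3.22, SE 0.78), and *Hspa1a* at 140, 139 and 169 against 4.69, 29.9 and 40.6 (-3.00, SE 0.75). HS 72 h sample 1 was far below the other 2 samples in both, and without it 2 genes were called lower and the log2 difference of *Hspa1a* became -2.08, no longer called. The count was 6 with the library set as a term in the fit and 2 without the 8 libraries that stand apart. It was 7 with only NI and HS 72 h in the fit, 7 after quantile normalisation and 9 at equal totals. These genes encode the same inducible chaperone from near-identical neighbouring copies (chr17:34956436-34959238 and chr17:34969190-34972156), so reads may have been divided between them arbitrarily. *Hsph1* and *Dnajb4*, further chaperone genes, fell by 1.69 and 1.08 on the log2 scale, *Hsp90aa1* had a difference of -1.15 with an adjusted p of 0.0522 (limma), and the constitutive *Hspa8* one of 0.24.
The copies share the following stretch around a heat shock element, searched as GAANNTTC, which is shown because the largest falls over all genes were theirs.
*Hspa1b* (chr17:34959320-34959357, minus strand, GRCm38.p6) and *Hspa1a* (chr17:34972238-34972275, minus strand): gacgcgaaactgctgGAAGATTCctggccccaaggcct
Those letters occurred in 9 of 17 promoters (52.9%) of 11 matched heat shock genes, against 7.86% of all promoters.

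Markers of other cells were set beside these groups. Of 16 monocyte genes 7 rose and none fell (median 1.00): *Arg1*, *Cd244*, *Chi3l3*, *Ms4a4c*, *Ccr2*, *Emilin2* and *Itgal*. The call of *Chi3l3* was lost without NI sample 3, HS 72 h sample 2 or HS 72 h sample 3. It was also lost without the 8 libraries that stand apart. *Arg1*, the arginase gene of alternatively activated and monocyte-derived macrophages, went from 1.37, 1.29 and 1.63 to 20.2, 40.5 and 38.1 (log2 fold change 4.05, SE 0.61), and *Ccr2*, the receptor that brings monocytes out of the blood, from 14.6, 20.1 and 19.3 to 34.6, 81.1 and 100 (1.85, SE 0.45). In contrast *Ly6c2*, at 0.834, 0.772 and 1.63 in NI and 0.958, 1.79 and 2.25 in HS 72 h, stayed within a few reads and was not called (0.45), and *Plac8* had a log2 difference of 0.28. HS 72 h sample 1, the lowest for *Arg1* and *Ccr2*, was the highest for the replication genes, and the summed monocyte list was 98.7 to 105 in NI and 256, 359 and 344 in HS 72 h. The part of entering monocytes in the phagocyte, interferon and cell-cycle lists was not tested. Of 9 genes of border-associated macrophages *Folr2* (2.63) and *Ms4a7* (1.11) rose, a count of 1 without NI sample 2 or HS 72 h sample 2, whereas *Mrc1*, *Cd163* and *Lyve1* had log2 differences of -0.96, -0.64 and -0.70, and 1 gene was lower without NI sample 3 or HS 72 h sample 1. Of 12 neutrophil genes *Camp* fell, a call lost in each leave-out except that of NI sample 3, and *S100a8* was at 35.3, 13.1 and 8.44 in NI and 4.95, 3.67 and 2.87 in HS 72 h without passing. None of 11 lymphocyte and none of 8 dendritic cell genes was called, with *Cd3e* under 1 in all 6 samples. At equal totals 6 of the monocyte genes were higher and none lower (median 0.61). On that scale 1 border macrophage gene was higher and 3 lower, and 5 neutrophil genes and 1 dendritic cell gene were lower, against 3201 of all 16810 genes.

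Genes of neural cells differed widely in level, and most pointed down. In NI the summed values were 1214 to 1583 for the astrocyte list and 1316 to 2663 for the oligodendrocyte list. Of 15 astrocyte genes 6 fell and 1 rose (median -1.09). *Slc1a2*, the glutamate transporter of astrocytes, fell from 152, 99.9 and 87.4 to 29.2, 23.2 and 17.8 (log2 fold change -2.24). *Gfap*, the intermediate filament of reactive astrocytes, was the exception at 52.6, 54.6 and 28.3 in NI and 330, 185 and 134 in HS 72 h (2.21, SE 0.33). Of 15 neuronal genes 4 fell, *Snap25*, *Nefl*, *Nefm* and *Nefh*, a count of 2 without HS 72 h sample 3 or NI sample 2, and the summed list was 147, 147 and 108 in NI and 72.2, 79.7 and 70.9 in HS 72 h. Of 15 oligodendrocyte genes *Olig1* and *Olig2* fell and *Cspg4* rose (1.56), and the lower count was 0 without NI sample 1, without NI sample 2 or without the 8 libraries that stand apart, and 1 without HS 72 h sample 2 or 3. The myelin gene *Mbp*, at 780, 868 and 486 in NI and 1232, 413 and 333 in HS 72 h, overlapped between the groups and was not called. Of 6 fibroblast genes *Mgp* (2.67) and *Col3a1* (2.32) rose, with HS 72 h sample 1 the highest at 30.2 and 33.3, and none of 9 endothelial genes passed, although 1 was lower without HS 72 h sample 1. At equal totals, where 3201 of all genes were lower, 10 astrocyte, 8 neuronal, 8 oligodendrocyte genes and 1 endothelial gene were lower. The part of neural transcripts in the differences of other genes was not tested.

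**Figure D4:**
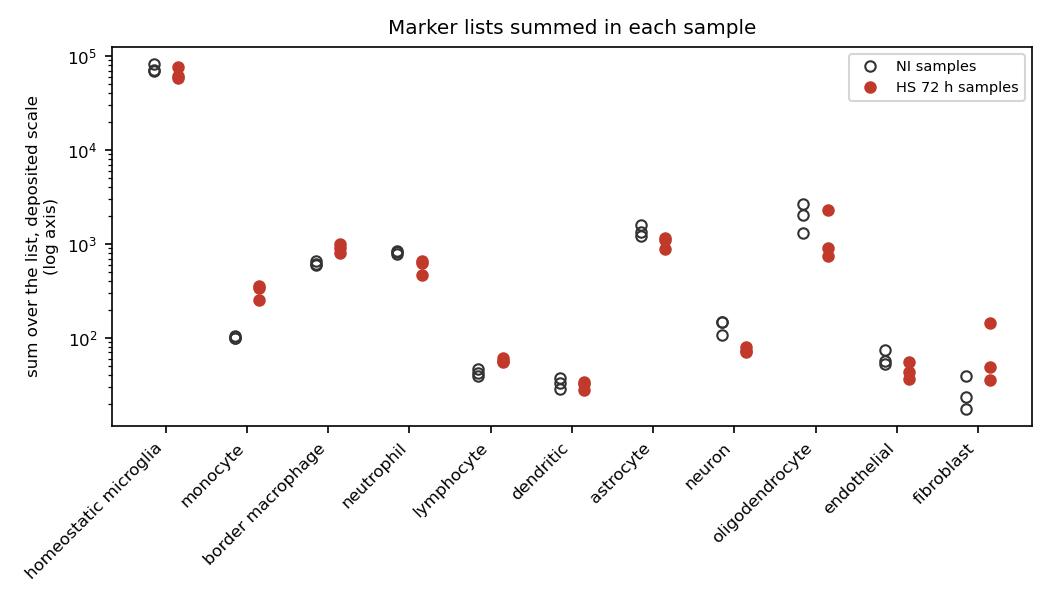
The summed deposited value of each marker list is plotted on a log axis for each NI sample (open points) and HS 72 h sample (filled points). The monocyte list lies at 98.7 to 105 in NI and 256 to 359 in HS 72 h, the neuronal list at 108 to 147 and 70.9 to 79.7, and the homeostatic list overlaps, at 68653 to 81812 and 58938 to 75516.

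The same cells 1 week after hemisection were compared directly with HS 72 h, using the 3 and 2 samples of those groups, and this contrast shares its HS 72 h samples with the one above. At 1 week 328 genes (1.95%) were higher and 685 (4.07%) lower than at 72 h. Of the replication and mitosis lists 14 of 19 licensing, 17 of 23 fork, 7 of 11 nucleotide, 17 of 23 cyclin and kinase and 23 of 29 kinetochore genes were lower at 1 week and none was higher. *Top2a* had a mean of 209 ± 54.3 (SD, n = 3) at 72 h and 9.84 ± 2.75 (n = 2) at 1 week, beside 7.67 ± 1.26 (n = 3) in NI. Respiratory subunits were lower at 1 week as well, in 16, 6, 6 and 11 members of the 4 lists, as were 8 of 31 proteasome, 8 of 20 matrix and 8 of 19 actin genes, *Lgals1* among them, with a mean of 36.4 at 1 week (log2 difference -2.49). No ribosomal protein gene was called in this contrast, with medians of -0.54 and -0.61 for the large and small subunit.

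None of the 21 phagocyte genes was lower at 1 week. *Spp1* stood at 4161 ± 944 at 72 h and 2659 ± 250.5 (n = 2) at 1 week, a log2 difference of -0.63 that did not pass. *Itgax*, by contrast, was higher at 1 week, with a mean of 71.7 (1.81, limma adjusted p = 0.000679). Of 26 interferon genes none was lower and 1 was higher, and *Isg15* had means of 39.4 ± 5.70 and 48.6 ± 0.819. *C3* was higher at 1 week with a mean of 70.1 (2.18), and *Ccl5* with 51.8 (2.08), *Ccl5* being named after its values were seen. *Tmem119* had a mean of 537 at 72 h and 640 at 1 week (log2 difference 0.27, not called). *Hspa1b* and *Hspa1a* were higher at 1 week, with means of 72.8 and 124 (2.86 and 2.73), near the NI means of 94.3 and 149. *Arg1* had a mean of 7.19 ± 2.35 at 1 week against 32.9 ± 11.1 at 72 h, and the difference did not pass (limma adjusted p = 0.0546). With 2 samples at 1 week the count of 1013 genes fell to 556 and 545 without sample 1 or 2 of that group, to 579 without HS 72 h sample 1 and to 613 without the 8 libraries that stand apart, and at equal totals 879 genes were higher and 329 lower.

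The lesion types were compared at 72 h with 3 samples each, in a contrast that again shares the HS 72 h samples. No gene (0.0%) was DE between FT and HS at 72 h by limma, edgeR's quasi-likelihood or likelihood ratio test, or DESeq2, while 505, 472, 508 and 384 genes had an unadjusted p under 0.05. The 1 gene called in any setting appeared without HS 72 h sample 2. *Spp1* had means of 4585 ± 676 after FT and 4161 ± 944 after HS, *Top2a* 195 ± 19.9 and 209 ± 54.3, and *Tmem119* 565 ± 52.2 and 537 ± 89.6. *Arg1* spread more widely after FT, at 42.8 ± 38.6 against 32.9 ± 11.1. The median log2 difference, FT minus HS, was -0.17 for the kinetochore list, 0.15 for the phagocyte list, 0.25 for the interferon list and 0.41 for the monocyte list, against -0.02 over all genes. A difference that misses the threshold with 3 samples a group does not show that the lesions act alike.

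**Figure D5:**
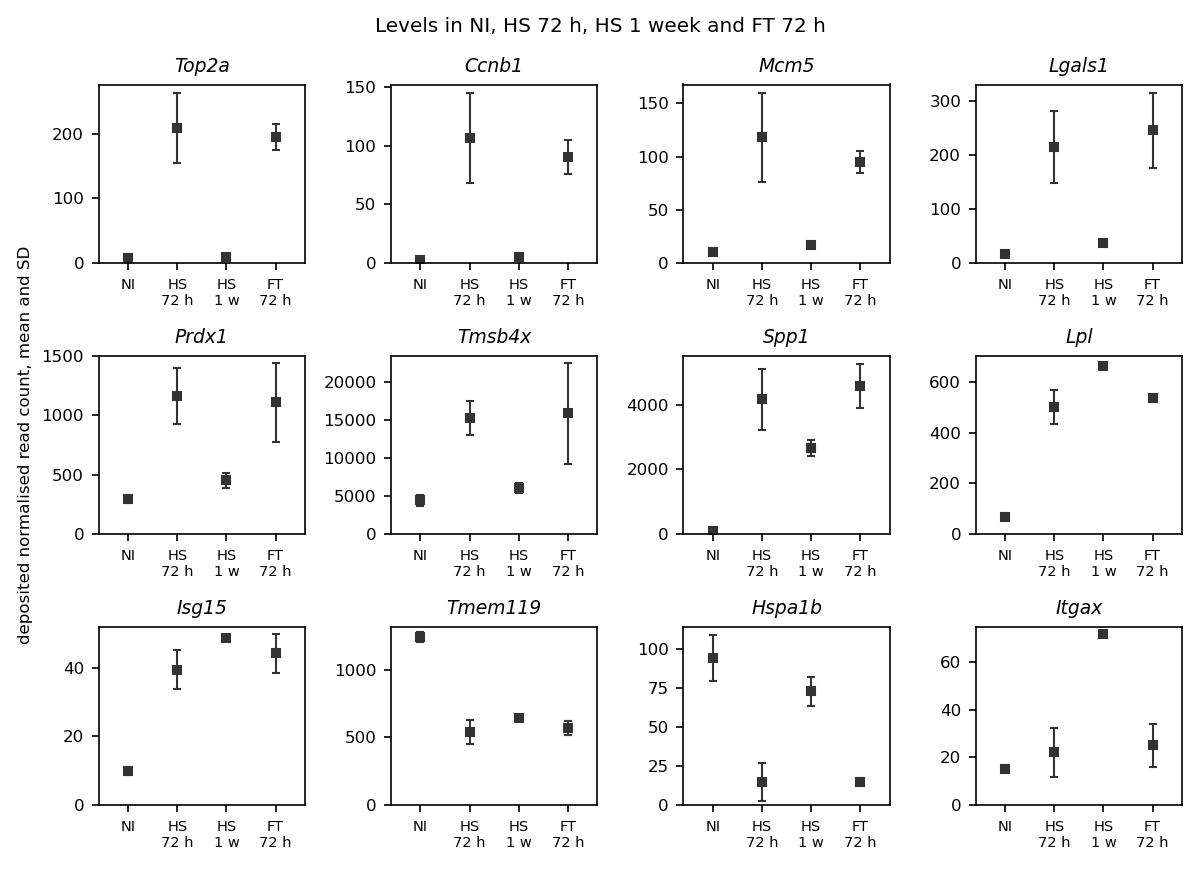
Mean and SD of the deposited value are drawn for 12 genes in NI (n = 3), HS 72 h (n = 3), HS 1 week (n = 2) and FT 72 h (n = 3), each on a linear axis from 0. *Top2a*, *Ccnb1* and *Mcm5* are high in the 72 h groups and near NI at 1 week, *Spp1*, *Lpl* and *Isg15* stay above NI at 1 week, and *Itgax* is highest at 1 week (71.7).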

How the data were processed

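The table measured poly-A RNA of sorted eGFP-high cells in 20 libraries (SMARTer Ultra low and Nextera). The authors aligned reads to mm10 with TopHat2 2.0.9, counted them with HTSeq 0.5.4p3, kept genes with at least 10 counts in at least 2 replicates and normalised them with edgeR 3.3.6. Strandedness and batches are not given in the sources used here. The deposited values are a signal, gene counts divided by a size factor: 100.0% of 336200 values were whole reads within 0.001 of the step of 1 read, which gave the depth of each library.

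The groups were compared with limma 3.58.1 (trend, R 4.3.3) on log2(value + 0.5), with 7 group means fitted to all 20 samples and Benjamini-Hochberg adjustment over 16810 genes. DE meant adjusted p under 0.05 and at least 2-fold. Count tests (edgeR 4.0.16, DESeq2 1.42.0) on the recovered reads, other scalings, pseudocounts, a filter, thinning to 3872918 reads, a replicate block and leaving out each sample were alternatives, and scripts were tested on simulated data. Gene lists (47, with 796 of 808 genes in the table) and the comparison itself were chosen with earlier results of these data known. Genes named were the lead genes of each list, its 4 largest rises and falls among DE genes, the 10 largest rises and falls over all genes with a mean of at least 5 and no overlap, and the 5 largest gains and losses in value; genes named beyond these were chosen after their values were seen. Coordinates are from GENCODE vM21 (GRCm38) and promoters from RefSeq (GRCm38.p6). Data were handled with Python 3.11.15, pandas 2.3.3, numpy 2.4.6 and matplotlib 3.10.9. Counting error is smallest in HS 72 h sample 1 and largest in HS 72 h sample 3. Some genes that the naming rule selects are not reported here.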

Additional observations from a re-analysis of the deposited data

Results flagged for a closer look

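The change from NI differed between 72 h and 1 week after hemisection for 1013 genes, by the direct contrast of HS 1 week with HS 72 h (limma adjusted p under 0.05 and at least 2-fold). It differed for 14 genes of replication licensing, 17 of the replication fork, 7 of nucleotide supply, 17 cyclins and kinases, 8 cell-cycle factors, 23 kinetochore and checkpoint genes and 11 DNA damage genes, and all of these were lower at 1 week. It also differed for 6 subunits of respiratory complex IV and 11 of the ATP synthase, which were lower at 1 week too. The 1 week group has 2 samples, the deepest 72 h library (HS 72 h sample 1) is the highest for the replication genes, and the part of that library in the difference was tested only by leaving it out, which gave 579 genes. Single deviating values in groups of 3 samples were searched only as genes 2-fold below both other samples, in NI and HS 72 h.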

How the results depend on the processing

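Of 232 named genes 185 were DE, and 126 of these stayed called under all 21 alternatives, 59 were lost in some and none reversed. Of the named genes that were not DE, 19 were called under some alternatives. *Hsp90aa1* and *S100a8* were called by both edgeR tests and DESeq2, *Cdkn1a* by both edgeR tests, and *P2ry12* after quantile normalisation and at equal totals. Among DE genes between HS 72 h and NI, 98.7% were also called in the same direction by edgeR's quasi-likelihood test, 99.6% by its likelihood ratio test, 97.8% by DESeq2, 84.2% after thinning, 66.5% after quantile normalisation and 59.7% at equal totals. The count of 2250 moved by over 1.5 times at equal totals (3820) and with no fold limit (4585), and lay between 1951 and 2654 when each sample was left out. The share of DE genes that were higher was 62.1% with 0.1 and 75.7% with 1 added before log2, 65.5% with only the groups compared, 70.4% with median-of-ratios scaling, 58.0% after quantile normalisation, 16.2% at equal totals, 60.1% with no fold limit, 58.9% by edgeR's quasi-likelihood and 54.3% by its likelihood ratio test, 64.6% by DESeq2, and 65.9% to 72.0% when each sample was left out. For HS 1 week against HS 72 h, 1604 genes were called with no fold limit, 613 without the 8 libraries that stand apart (81 higher, 532 lower) and 545 to 1301 when each sample was left out. For FT against HS at 72 h the range was 0 to 1. With a replicate block the counts were 2243, 981 and 0. The deviations of same-numbered NI and HS 72 h samples from their group means had correlations of 0.329, -0.165 and 0.0744. Over all pairs of an NI and an HS 72 h sample they ranged from -0.317 to 0.329. These few values cannot tell whether equal numbers mark a pairing. Depth limits genes near 1 read, worth up to 0.205. The scale is the main limit: the totals of the groups differ, and the deposited values hold no spike-in from which the true total could be read, so a direction for lists with a median near 0 depends on it.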

Other observations

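Of the 287 genes that were at least 4-fold higher in HS 72 h than in NI, 119 were in the lists and 168 were not. The genes of this paragraph were named after their values were seen. Among the 168 were *Ube2c* (log2 fold change 4.34), the kinesin gene *Kif20a* (4.27) and *Uhrf1* (3.54), which copies DNA methylation. *Stmn1*, a regulator of microtubules, was at 126, 93.3 and 109 in NI and at 871, 741 and 481 in HS 72 h (2.63). *Serpina3n* rose by 4.09, *Saa3* by 3.89, *Plp2* by 3.76, *Cd72* by 3.19 and *Lilrb4* by 3.18. *Tspo*, the mitochondrial translocator protein used as an imaging target for microglia, rose by 2.24. Over all genes 9.08% were higher and 4.31% lower, and gene families taken by their symbols are given beside these shares. Of 37 kinesin genes 11 rose and 2 fell. Of 76 mitochondrial ribosome genes 23 rose and none fell (median 0.85). Of 57 genes whose symbols begin with *Eif* and a digit 18 rose and none fell (median 0.57). That symbol covers translation initiation factors and also other genes, such as the kinase gene *Eif2ak2*, 1 of the 18. Of 349 zinc finger protein genes 14 fell, near the share of all genes, and none rose (median -0.34). Of 335 solute carrier genes 13 rose and 19 fell (median -0.18), the falls again near that share. On the lower side were *Sparcl1* (-2.16), *Col27a1* (-1.97), *Il6ra* (-1.83), *Bmf* (-1.72) and *Ddit3* (-1.58).

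The 54 genes that are low in NI sample 3 and HS 72 h sample 2 were also low in HS 1 week sample 2, HS 2 week sample 2, FT 72 h sample 2, FT 1 week samples 1 and 3 and FT 2 week sample 3. Each library was set against the mean of NI samples 1 and 2 and HS 72 h samples 1 and 3, so differences between groups enter as well. The median log2 difference of the 54 genes from that mean was -1.93 to -1.22 in these 8 libraries and -0.37 to 0.35 in the other 12. Other pairs of an NI and an HS 72 h sample shared 0 or 1 such gene. With this set of libraries as a term, an alternative chosen after seeing the data, 2321 genes were DE between HS 72 h and NI, including all 2250, and 9 rather than 2 of the 54 genes were called, among them *Cox8a* (log2 fold change 1.31), *Pfn1* (1.33), *Cox5b* (1.14) and *Ndufb2* (1.11). Without the 8 libraries 2041 genes were DE, 78.7% of the 2250 among them, and *Camp*, *Cd40*, *Mmp9* and *Ms4a7* were no longer called.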
